A study of Mus musculus with 12 samples.

Results

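The genes examined were 54 genes of the G2 and M phases of the cell cycle, out of 20696 genes with at least 1 read. The members are a list of named genes with textbook roles in mitosis, with no threshold on a measured value. This list and the other gene lists below were chosen with earlier results of these data known. RNA was sequenced from bone marrow cells sorted by flow cytometry as LSK (Lin-Sca-1+Kit+, the gate for mouse blood stem and early progenitor cells) without Flk2. The 12 libraries fell into 4 genotypes of 3 libraries each: Wild-type, the single mutants Mdmx-Tg and Pu.1-URE-/-, and their cross, Mdmx-Tg/Pu.1-URE-/-, called the double mutant. Mdmx-Tg mice carry a transgene of Mdmx (gene Mdm4), an inhibitor of p53. Pu.1-URE-/- mice lack the upstream regulatory element of the PU.1 gene Spi1 on both alleles, and the double mutant carries both changes. All 4 groups were untreated as far as the labels say, and the labels name no promoter driving the transgene, no strain and no age. The labels number each library but do not say whether these are separate mice, so p-values measure only the spread between these libraries. Y-linked genes were high in Wild-type 2 and in double mutants 1 and 3 only. The libraries of Wild-type, and those of the double mutant, therefore did not all come from 1 mouse. For the other libraries the spread may be technical.

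In mitosis, Cdk1 bound to A- and B-type cyclins starts chromosome condensation and spindle assembly. The spindle checkpoint holds anaphase until every kinetochore is attached, and Cdc20 and the anaphase-promoting complex then release the sister chromatids. Most of these genes are transcribed late in the cycle, under the DREAM and MMB complexes acting at CHR and CCAAT promoter elements, and in resting stem cells they are largely silent, so their RNA level in a bulk sample is commonly read as a sign of cycling cells. A bulk sample cannot tell fewer cells of a type from less RNA per cell.

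Promoters of the members often carried these elements. RefSeq sequences (GRCm38.p6) from 250 bases before to 50 bases from the start were available for 45 of the 54 members, in 49 promoters, since 4 members had more than 1 start. The letters searched, on both strands, were TTTGAA and TTCGAA for the CHR and CCAAT for the CCAAT box, none of which contains another. A CHR match was present in 37 of the 49 (75.5%), against 19.2% of 32851 promoters of the same length, and a CCAAT match in 39 (79.6%), against 37.4%. Both were present in 33 (67.3%), against 7.52% at large and 20.5% of 161 promoters of other mitosis genes. A match is a description of letters and not a site. The 4 members with the smallest p for loss of the element are printed from 200 bases before the start, in lower case with CHR and CCAAT matches on either strand in capitals, because 3 of them hold the matches and 1 does not.
Spc25 promoter, chr2:69206184-69206413, minus strand: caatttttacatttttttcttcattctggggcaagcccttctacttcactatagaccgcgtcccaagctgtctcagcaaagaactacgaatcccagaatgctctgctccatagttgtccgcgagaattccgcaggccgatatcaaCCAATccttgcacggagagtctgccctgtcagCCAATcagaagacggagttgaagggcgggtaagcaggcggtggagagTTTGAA
Kif11 promoter, chr19:37376182-37376411, plus strand: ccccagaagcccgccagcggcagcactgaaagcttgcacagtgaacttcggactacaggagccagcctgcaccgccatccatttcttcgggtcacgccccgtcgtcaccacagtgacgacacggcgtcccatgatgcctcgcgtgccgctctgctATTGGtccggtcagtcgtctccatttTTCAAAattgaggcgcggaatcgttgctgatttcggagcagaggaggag
Cdk1 promoter, chr10:69352883-69353112, minus strand: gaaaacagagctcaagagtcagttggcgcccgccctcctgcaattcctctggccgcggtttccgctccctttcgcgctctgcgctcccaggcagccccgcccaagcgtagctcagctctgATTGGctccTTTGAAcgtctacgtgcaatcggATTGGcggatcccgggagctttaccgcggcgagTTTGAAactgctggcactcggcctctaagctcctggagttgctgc
Tacc3 promoter, chr5:33657928-33658157, plus strand: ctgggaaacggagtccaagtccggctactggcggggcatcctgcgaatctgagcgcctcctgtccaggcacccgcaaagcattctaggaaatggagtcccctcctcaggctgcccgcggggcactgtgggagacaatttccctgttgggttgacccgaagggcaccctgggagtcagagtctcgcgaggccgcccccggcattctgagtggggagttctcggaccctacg

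In the Spc25 sequence the CCAAT matches began 55 and 23 bases before the start and the CHR match 24 bases after it. Kif11 held CCAAT on the other strand 45 bases before the start and TTTGAA on the other strand 19 bases before it. Cdk1 held TTTGAA 71 and 15 bases before the start, with CCAAT on the other strand 80 and 48 bases before it. Tacc3 held no match in this window, and neither did Nusap1 or Birc5, the next members by p. A CHR match was about as frequent in promoters of the members that rose with loss of the element (13 of 17, 76.5%) as in those of the other members (24 of 32, 75.0%). For a CCAAT match the counts were 12 of 17 (70.6%) and 27 of 32 (84.4%).

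Every member was detected in all 12 libraries and passed the filter on low counts. Levels between genes were compared per length, as the authors' TPM summed over transcripts. Mean TPM over the 12 libraries ran from 3.13 for Foxm1, a forkhead transcription factor of late cell cycle genes, to 718 for Cks1b, a small Cdk-binding subunit. Nek2 (6.34) and the chromokinesin gene Kif4 (7.97) were next to Foxm1, and Cks2 (499), the passenger subunit gene Birc5 (333) and Cdk1 (324) followed Cks1b. Within a gene, levels are given as CPM, estimated read counts scaled to a common library total with TMM factors (trimmed mean of M values), and differences as log2 fold changes from the edgeR fit.

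Together the members took 0.433% to 1.18% of the reads of a library. Their summed level was 5077, 7013 and 7876 CPM in Wild-type 1, 2 and 3 and 5117, 5633 and 6380 in Mdmx-Tg. It was 13100, 7914 and 11410 in Pu.1-URE-/- and 8446, 7949 and 8515 in the double mutant. All 6 libraries that lack the element therefore lay above all 6 that carry it, by a small margin for Pu.1-URE-/- 2 and double mutant 2, which stood next to Wild-type 3. Gene by gene, Pu.1-URE-/- 1 was the highest of the 12 libraries for 40 of the 54 members and Pu.1-URE-/- 3 for 8. The lowest library was a Mdmx-Tg library for 36 members and a Wild-type library for 18. Mean levels followed the order Pu.1-URE-/-, double mutant, Wild-type, Mdmx-Tg in 33 members, and Pu.1-URE-/- had the highest mean in 48.

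**Figure D1:**
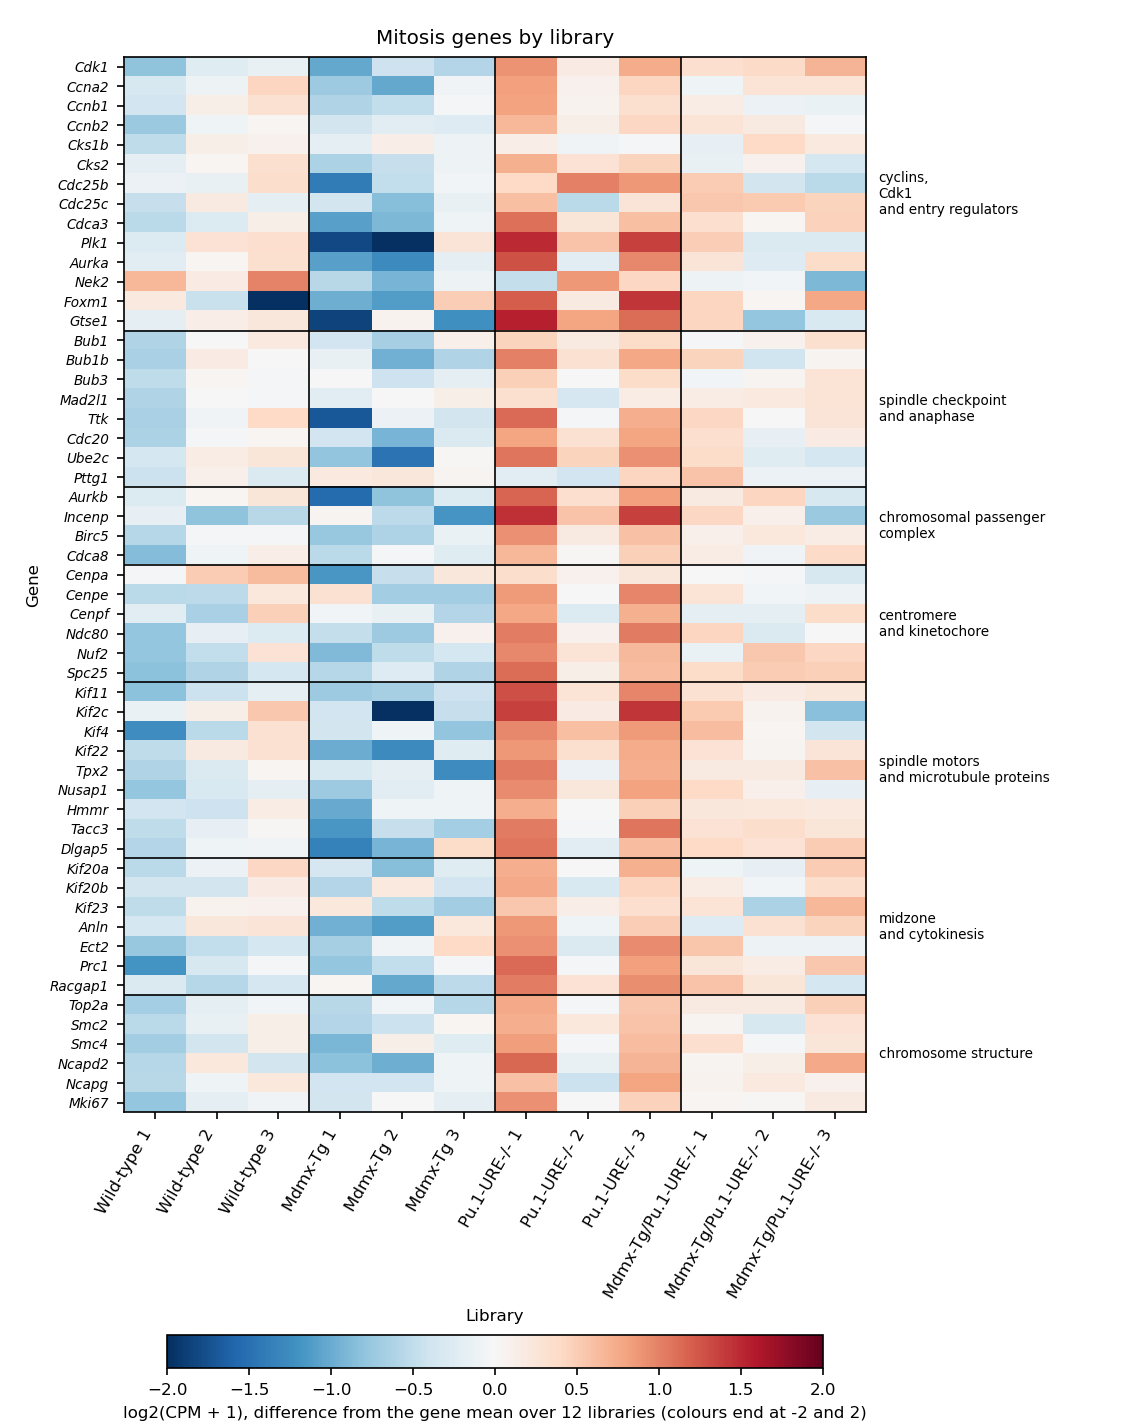
Heat map of the 54 mitosis genes (rows, ordered by role) in the 12 libraries (columns, 3 per genotype). Colour gives log2(CPM + 1) minus the gene's mean over the 12 libraries, and the columns of Pu.1-URE-/- 1 and 3 are the reddest, with the highest value for 40 and 8 members.

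Depth was similar across libraries, at 47271286 to 55067735 reads, but marker levels moved with genotype. Mdm4, the transgene's gene, was at 163 to 535 CPM in the 6 transgenic libraries and at 35.8 to 93.9 in the others, while Spi1 overlapped between genotypes (3.69 to 37.98 CPM in the 6 libraries with the element, 0.0198 to 23.9 in those without), and the deleted element lies outside its transcript. Kit, part of the gate, was at 270 to 328 CPM in the 6 libraries with the element and lower, at 165 to 261, in the 6 without. Flt3 (Flk2), which the gate excludes, was at 5.83 to 22.2 with the element. Without it Flt3 was at 10.8 in Pu.1-URE-/- 1 and at 35.6 to 53.7 in the others. Granulocyte-monocyte progenitor markers summed to 884 to 2606 CPM in the 6 libraries with the element and to 10450 to 54170 in the 6 without, and 10 of 10 rose with its loss. Neutrophil markers, of cells that the lineage gate should remove, summed to 3.3 to 18.1 CPM with the element and 24050 to 93520 without, and Ly6g was at 0 in all 6 libraries with it. Erythroid markers ran from 611 to 2928 CPM with the element and 92.5 to 1148 without. Of 12 stem cell and gate markers 5 fell and 2 rose with loss of the element. Y-linked genes were high in Wild-type 2 and in double mutants 1 and 3 only. Immunoglobulin genes took 31.2%, 10.3% and 0.427% of all reads in Wild-type 1, 2 and 3 and 3.79%, 6.91% and 10.6% in Mdmx-Tg. In the 6 libraries without the element they took 0.131% to 4.13%. B and plasma cell markers summed to 434 to 24580 CPM with the element and 133 to 2724 without. The part of the cell type markers in the results on the mitosis genes was not tested.

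Loss of the element, taken as the mean of its effect with and without the transgene (6 libraries against 6), went with a rise of 19 of the 54 members and a fall of none. That is 35.2% of the members, where 8.08% of the 15012 genes tested rose (edgeR's quasi-likelihood test, Benjamini-Hochberg adjusted p below 0.05 over all genes, the rule for every rise or fall reported here). Because the list was chosen with earlier results known, these shares describe it and are no test of it. The members' median log2 change was 0.70, against 0.00 over all genes, and 53 of 54 were above 0, as were 50% of all genes. At an unadjusted p below 0.05, 43 members were higher, where 15.5% of all genes were. The 6 libraries without the element lay entirely above the 6 with it for 6 members (4.89% of all genes): Spc25, Kif11, Cdk1, Birc5, Top2a and Prc1. The count of 19 was sensitive to single libraries: it was 4 without Pu.1-URE-/- 1 or Pu.1-URE-/- 3, 5 without Wild-type 1 or double mutant 1, 7 without Wild-type 2 or Mdmx-Tg 1, 10 without double mutant 3 and 12 without Wild-type 3 or Mdmx-Tg 2. It was 15 without double mutant 2, 18 without Mdmx-Tg 3 and 22 without Pu.1-URE-/- 2. It was 5 with Wild-type 1, Mdmx-Tg 2 and double mutant 3 left out together, and 9 with Y-linked expression as a covariate. The 3 left out together were chosen as doubted libraries, and the effect of having fewer libraries alone was not tested. No share of all genes was taken for any of these repeats.

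**Figure D2:**
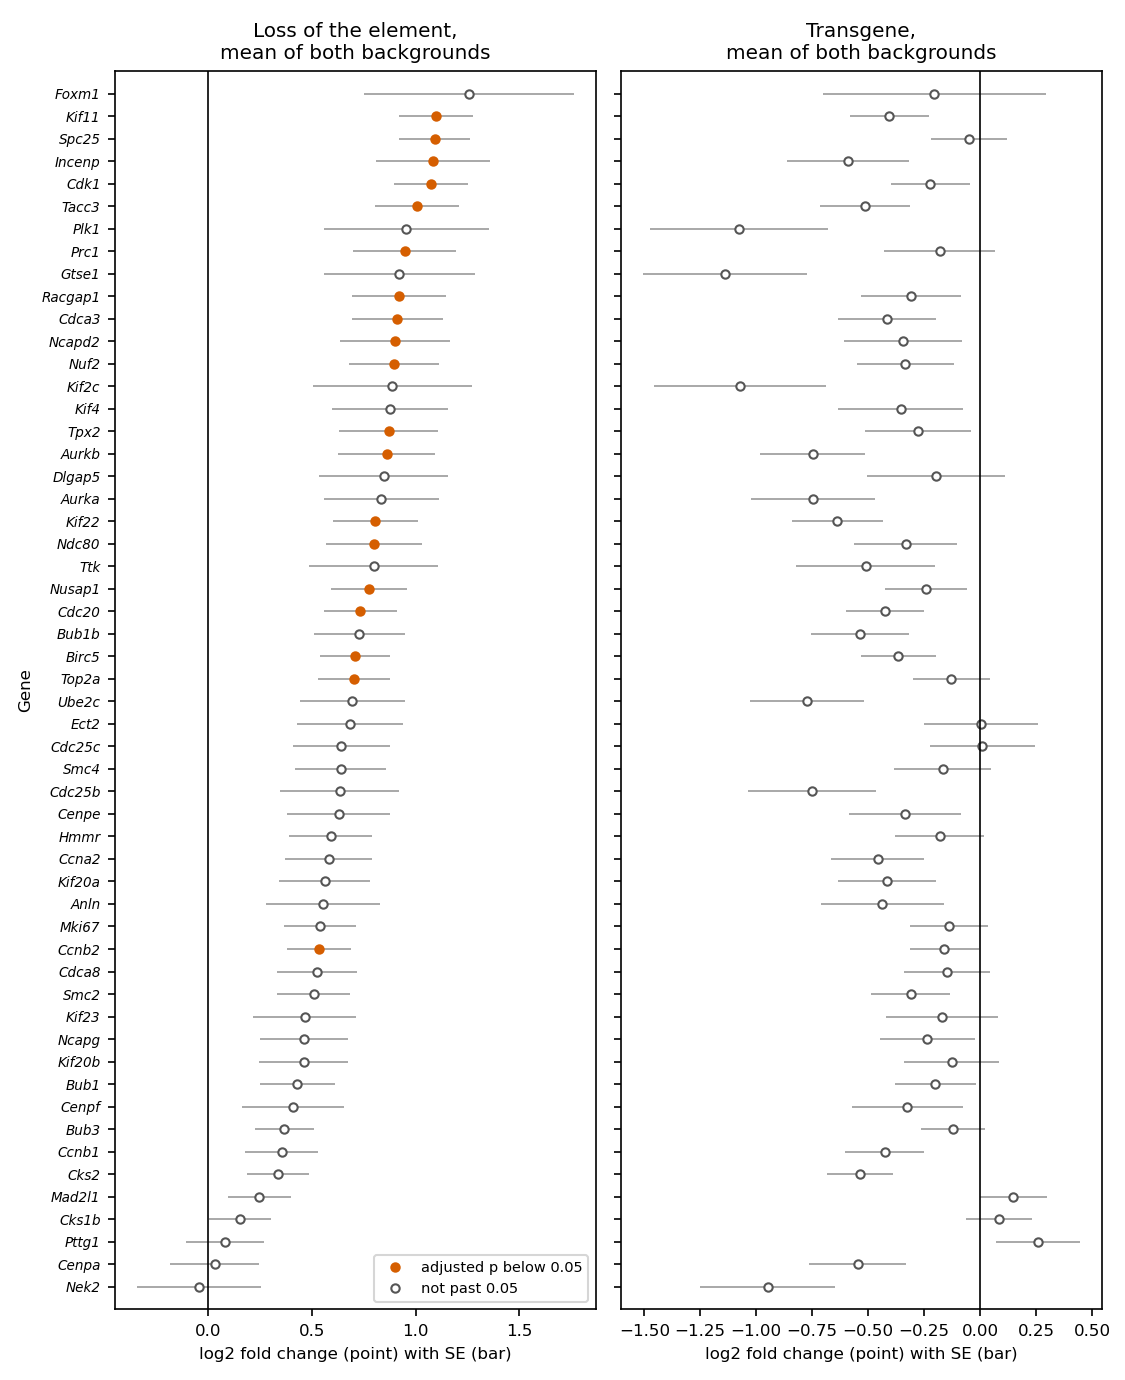
Log2 fold change of each of the 54 mitosis genes (points, with SE as bars) for loss of the element (left) and for the transgene (right), each the mean of both backgrounds. Filled points passed an adjusted p of 0.05 in edgeR: 19 genes on the left, all above 0, and 0 on the right, where 49 of 54 points lie below 0.

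Among the 14 genes of mitotic entry, 3 rose with loss of the element (21.4%, against 8.08% of all genes): Cdk1, Cdca3 and Ccnb2. Cdk1 (chromosome 10, 69335146 to 69352938, GRCm38), the kinase that drives entry into mitosis, was at 123, 180 and 193 CPM in Wild-type 1, 2 and 3, 104, 160.2 and 142 in Mdmx-Tg, 401, 239.8 and 359 in Pu.1-URE-/- and 270.3, 280 and 344 in the double mutant. All 6 libraries without the element were above all 6 with it, and the level was 2.10-fold higher (log2 change 1.07 ± 0.18, SE; edgeR adjusted p = 0.00341). Cdca3, which promotes destruction of the mitosis inhibitor Wee1, was at 64.5, 78.2 and 102 CPM in Wild-type 1, 2 and 3, 44.0, 50.04 and 88.5 in Mdmx-Tg, 203, 111 and 144 in Pu.1-URE-/- and 119, 96.4 and 130 in the double mutant. Double mutant 2 lay below Wild-type 3 and otherwise the sets did not overlap, with Cdca3 1.88-fold higher (log2 change 0.91 ± 0.22, SE; edgeR adjusted p = 0.0224). Ccnb2, a B-type cyclin, was at 162, 256 and 279 CPM in Wild-type 1, 2 and 3, 211, 236 and 227 in Mdmx-Tg, 433, 295 and 364 in Pu.1-URE-/- and 328, 309.9 and 266 in the double mutant. Only double mutant 3 lay within the range of the libraries with the element, and Ccnb2 was 1.45-fold higher (log2 change 0.53 ± 0.15, SE; edgeR adjusted p = 0.0469). Of 12 fits that each left out 1 library, Cdk1 passed in 12, Cdca3 passed in 4 (adjusted p up to 0.0626, without double mutant 1) and Ccnb2 passed in 1 (adjusted p up to 0.14, without double mutant 1).

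The other 11 entry genes had log2 changes from -0.04 to 1.26 and did not pass. Foxm1 had the largest change of all members and the widest error (1.26 ± 0.51, edgeR adjusted p = 0.137), with Wild-type libraries at 13.0, 8.04 and 1.64 CPM. The kinase genes Plk1 (0.96 ± 0.40, adjusted p = 0.148 in edgeR) and Aurka (0.84 ± 0.28, edgeR adjusted p = 0.0757) and the p53 regulator gene Gtse1 (0.92 ± 0.37, edgeR adjusted p = 0.13) were of similar size to Cdca3, with wider spread. Cyclin genes Ccna2 and Ccnb1 were at 0.58 ± 0.21 and 0.35 ± 0.18. The phosphatase genes Cdc25b and Cdc25c, whose products activate Cdk1, were at 0.63 ± 0.29 and 0.64 ± 0.23. Little shift was seen in Cks2 (0.34 ± 0.15), in Cks1b (0.15 ± 0.15) or in the centrosome kinase gene Nek2 (-0.04 ± 0.30). Nek2 was the one member with a change below 0, at 28.1, 19.7 and 35.9 CPM in Wild-type and 12.3, 32.6 and 23.6 in Pu.1-URE-/-.

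Of the 8 genes of the spindle checkpoint and anaphase, 1 rose, Cdc20. That is 12.5%, near the 8.08% of all genes. Cdc20, the activator of the anaphase-promoting complex, was at 214, 324 and 341 CPM in Wild-type 1, 2 and 3, 255, 173 and 270.1 in Mdmx-Tg, 575, 407 and 576 in Pu.1-URE-/- and 419.8, 294 and 372.5 in the double mutant. Double mutant 2 lay below Wild-type 2 and 3, the other 5 libraries without the element lay above all 6 with it, and Cdc20 was 1.66-fold higher (log2 change 0.73 ± 0.18, SE; edgeR adjusted p = 0.0222). Bub1b, the checkpoint kinase BubR1, came next at 0.73 ± 0.22 and an edgeR adjusted p of 0.0533, with Pu.1-URE-/- at 184, 114 and 157 CPM and Wild-type at 58.0, 103 and 91.4. The remaining 6 ran from 0.08 for the securin gene Pttg1, whose product blocks separase, to 0.80 for the checkpoint kinase gene Ttk. Between them lay the ubiquitin-conjugating enzyme gene Ube2c (0.69 ± 0.25), Bub1 (0.43 ± 0.18), Bub3 (0.37 ± 0.14) and Mad2l1 (0.25 ± 0.15). Cdc20 passed in 8 of the 12 fits with 1 library left out (adjusted p up to 0.0802, without Pu.1-URE-/- 3).

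The chromosomal passenger complex, which corrects faulty kinetochore attachments, had 3 of its 4 genes rise: Birc5, Incenp and Aurkb. That is 75%, against 8.08% of all genes. Birc5 (survivin), the subunit that binds the centromere, was at 162, 234 and 236 CPM in Wild-type 1, 2 and 3, 141, 156 and 220 in Mdmx-Tg, 455, 272 and 362 in Pu.1-URE-/- and 257, 278 and 267 in the double mutant. The sets of 6 did not overlap, and Birc5 was 1.63-fold higher (log2 change 0.71 ± 0.17, SE; edgeR adjusted p = 0.0215). Incenp, the scaffold of the complex (chromosome 19, 9872296 to 9899551), was at 51.4, 32.3 and 38.9 CPM in Wild-type 1, 2 and 3, 59.7, 39.5 and 24.6 in Mdmx-Tg, 159.9, 85.4 and 149.6 in Pu.1-URE-/- and 76.8, 61.6 and 33.9 in the double mutant. Double mutant 3 lay among the libraries with the element and the other 5 lay above them, with Incenp 2.12-fold higher (log2 change 1.08 ± 0.28, SE; edgeR adjusted p = 0.0289). Aurkb, its kinase, was at 103, 128 and 146 CPM in Wild-type 1, 2 and 3, 42.3, 71.0 and 102 in Mdmx-Tg, 279.6, 156 and 221 in Pu.1-URE-/- and 141, 168 and 99.0 in the double mutant. Double mutants 1 and 3 were below Wild-type 3, and Aurkb was 1.81-fold higher (log2 change 0.86 ± 0.23, SE; edgeR adjusted p = 0.0375). Cdca8 (borealin) was at 0.53 ± 0.19, with an edgeR adjusted p of 0.102. With 1 library left out in turn, Birc5 passed in 6 of 12 fits (adjusted p up to 0.0718, without Pu.1-URE-/- 3), Incenp in 4 (up to 0.0936, without double mutant 1) and Aurkb in 3 (up to 0.102, without Pu.1-URE-/- 3).

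Of the 6 centromere and kinetochore members, 3 rose: Spc25, Nuf2 and Ndc80, all subunits of the microtubule-binding Ndc80 complex. That is 50%, against 8.08% of all genes. The other 3 did not pass. Among kinetochore genes outside the members, 6 of 31 also rose. Spc25 (chromosome 2, 69193895 to 69206194), whose promoter holds both motifs, was at 104, 121 and 145 CPM in Wild-type 1, 2 and 3, 125, 155 and 122 in Mdmx-Tg, 401, 200 and 284 in Pu.1-URE-/- and 239.7, 263 and 258 in the double mutant. Every library without the element was above every library with it, and Spc25 was 2.13-fold higher (log2 change 1.09 ± 0.17, SE; edgeR adjusted p = 0.00234), the smallest adjusted p of the 54. Nuf2 was at 54, 65.9 and 114 CPM in Wild-type 1, 2 and 3, 50.3, 65.3 and 73.0 in Mdmx-Tg, 183, 113 and 147 in Pu.1-URE-/- and 84.9, 136 and 124 in the double mutant. Pu.1-URE-/- 2 and double mutant 1 lay below Wild-type 3, and Nuf2 was 1.86-fold higher (log2 change 0.90 ± 0.22, SE; edgeR adjusted p = 0.0234). Ndc80 was at 30.5, 47.1 and 43.3 CPM in Wild-type 1, 2 and 3, 37.4, 31.3 and 56.1 in Mdmx-Tg, 108, 55.9 and 109.5 in Pu.1-URE-/- and 71.4, 42.9 and 52.9 in the double mutant. Pu.1-URE-/- 1 and 3 stood apart at 108.5 and 109.5 CPM, whereas Pu.1-URE-/- 2 and double mutants 2 and 3 lay below Mdmx-Tg 3, and Ndc80 was 1.74-fold higher (log2 change 0.80 ± 0.23, SE; edgeR adjusted p = 0.0469). The kinesin gene Cenpe (0.63 ± 0.25), Cenpf (0.41 ± 0.25) and the centromeric histone gene Cenpa (0.03 ± 0.22) did not pass. Spc25 passed in 12 of 12 fits with 1 library left out, Nuf2 in 6 (adjusted p up to 0.0699) and Ndc80 in 3 (adjusted p up to 0.144), both highest without Pu.1-URE-/- 3.

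The 9 spindle genes held the most calls, with 5 rises (55.6%, against 8.08% of all genes): Kif11, Tacc3, Nusap1, Kif22 and Tpx2. Kif11 (chromosome 19, 37376403 to 37421859), the kinesin that pushes spindle poles apart, was at 84.1, 109.7 and 131 CPM in Wild-type 1, 2 and 3, 89.4, 93.3 and 112 in Mdmx-Tg, 362, 179.7 and 293 in Pu.1-URE-/- and 184, 167 and 174 in the double mutant. The sets did not overlap, with the double mutant libraries close together below Pu.1-URE-/- 1 and 3, and Kif11 was 2.14-fold higher (log2 change 1.10 ± 0.18, SE; edgeR adjusted p = 0.00289). Tacc3 (chromosome 5, 33658128 to 33678995), which cross-links spindle microtubules, was at 138, 176 and 199 CPM in Wild-type 1, 2 and 3, 87.4, 142 and 123 in Mdmx-Tg, 405, 192 and 412 in Pu.1-URE-/- and 239, 251 and 232 in the double mutant. Only Pu.1-URE-/- 2 lay within the range of the libraries with the element, below Wild-type 3, and Tacc3 was 2.01-fold higher (log2 change 1.01 ± 0.20, SE; edgeR adjusted p = 0.0096). Nusap1, a microtubule-bundling protein, was at 73.3, 102 and 111 CPM in Wild-type 1, 2 and 3, 76.3, 108 and 118 in Mdmx-Tg, 245, 148 and 221 in Pu.1-URE-/- and 166, 136 and 113 in the double mutant. Only double mutant 3 fell within the range of the libraries with the element, and Nusap1 was 1.71-fold higher (log2 change 0.78 ± 0.18, SE; edgeR adjusted p = 0.0204).

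Kif22, a chromosome-arm kinesin, was at 147, 236 and 258 CPM in Wild-type 1, 2 and 3, 104, 85.9 and 176 in Mdmx-Tg, 383.1, 262 and 350.6 in Pu.1-URE-/- and 254, 216 and 251 in the double mutant. All Pu.1-URE-/- libraries were above all others, the double mutants were above Mdmx-Tg but below Wild-type 3, and Kif22 was 1.75-fold higher (log2 change 0.81 ± 0.21, SE; edgeR adjusted p = 0.029). Tpx2, which activates Aurora A on the spindle, was at 95.2, 118 and 148 CPM in Wild-type 1, 2 and 3, 116, 126 and 59.5 in Mdmx-Tg, 296, 133 and 239 in Pu.1-URE-/- and 164, 164 and 217 in the double mutant. Pu.1-URE-/- 2 alone lay below Wild-type 3, and Tpx2 was 1.83-fold higher (log2 change 0.87 ± 0.24, SE; edgeR adjusted p = 0.0388). The kinesin genes Kif4 (0.88 ± 0.28, edgeR adjusted p = 0.0664) and Kif2c (0.89 ± 0.38, edgeR adjusted p = 0.161) and the spindle protein genes Dlgap5 (0.85 ± 0.31) and Hmmr (0.59 ± 0.20) did not pass. Kif11 and Tacc3 passed in 12 of 12 fits with 1 library left out. Nusap1 passed in 7 (adjusted p up to 0.0734), Kif22 in 4 (0.0879) and Tpx2 in 2 (0.111), each highest without Pu.1-URE-/- 3.

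**Figure D3:**
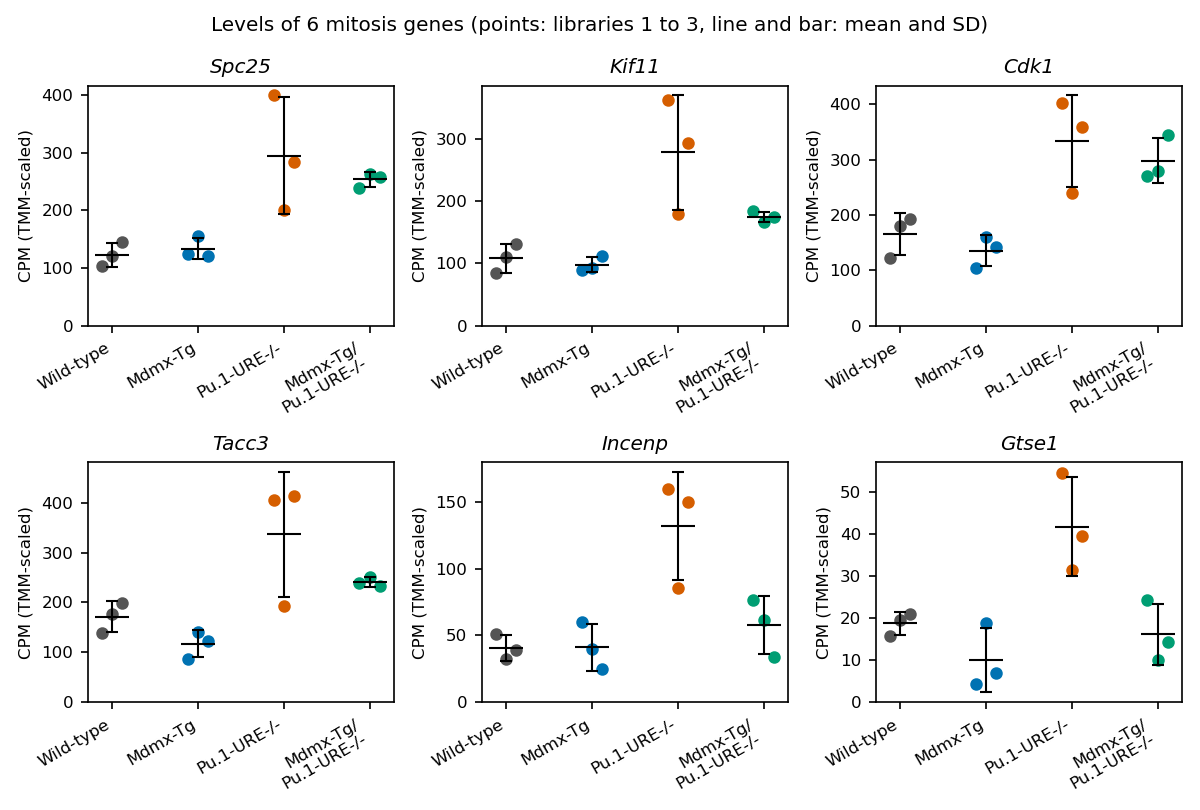
CPM of 6 mitosis genes in each genotype (points are libraries 1 to 3, the line and bar their mean and SD). For Spc25, Kif11 and Cdk1 all Pu.1-URE-/- and double mutant points lie above all Wild-type and Mdmx-Tg points, whereas Incenp and Gtse1 are highest in Pu.1-URE-/- and overlap elsewhere.

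Of the 7 genes of the spindle midzone and cytokinesis, Prc1 and Racgap1 rose (28.6%, against 8.08% of all genes). Prc1, which bundles the antiparallel microtubules of the midzone, was at 59.3, 110.2 and 135 CPM in Wild-type 1, 2 and 3, 79.9, 97.1 and 134 in Mdmx-Tg, 303, 135 and 243 in Pu.1-URE-/- and 162, 153 and 201 in the double mutant. The sets did not overlap by the narrowest of margins, Pu.1-URE-/- 2 at 134.8 against Wild-type 3 at 134.6, and Prc1 was 1.93-fold higher (log2 change 0.95 ± 0.25, SE; edgeR adjusted p = 0.0323). Racgap1, a subunit of centralspindlin, was at 65.3, 53.5 and 63.1 CPM in Wild-type 1, 2 and 3, 82.5, 39.1 and 55.8 in Mdmx-Tg, 164, 97.9 and 154 in Pu.1-URE-/- and 120.2, 95.6 and 62.5 in the double mutant. Double mutant 3 lay within the range of the libraries with the element and the other 5 lay above it, with Racgap1 1.89-fold higher (log2 change 0.92 ± 0.23, SE; edgeR adjusted p = 0.024). Its partner kinesin Kif23 (0.46 ± 0.25), Ect2 (0.69 ± 0.26), anillin (Anln, 0.55 ± 0.27), Kif20a (0.56 ± 0.22) and Kif20b (0.46 ± 0.21) did not pass. With 1 library left out in turn, Prc1 passed in 4 of 12 fits (adjusted p up to 0.0923, without Pu.1-URE-/- 3) and Racgap1 in 5 (up to 0.0841, without double mutant 1).

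Among the 6 genes of chromosome structure, Top2a and Ncapd2 rose (33.3%, against 8.08% of all genes). Top2a, the topoisomerase that untangles sister chromatids, was at 234, 326 and 362 CPM in Wild-type 1, 2 and 3, 256, 360.4 and 253 in Mdmx-Tg, 632, 368 and 544 in Pu.1-URE-/- and 426, 423 and 522 in the double mutant. The sets did not overlap, with Pu.1-URE-/- 2 just above Wild-type 3, and Top2a was 1.63-fold higher (log2 change 0.70 ± 0.17, SE; edgeR adjusted p = 0.0252). Ncapd2, a condensin I subunit, was at 50.8, 88.6 and 58.6 CPM in Wild-type 1, 2 and 3, 42.8, 38.3 and 71.8 in Mdmx-Tg, 171, 68.9 and 123 in Pu.1-URE-/- and 79.3, 82.5 and 129 in the double mutant. Pu.1-URE-/- 2 and double mutants 1 and 2 lay below Wild-type 2, and Ncapd2 was 1.87-fold higher (log2 change 0.90 ± 0.26, SE; edgeR adjusted p = 0.0493). The condensin genes Smc2 (0.51 ± 0.18), Smc4 (0.64 ± 0.22) and Ncapg (0.46 ± 0.21) did not pass, nor did Mki67, the proliferation antigen Ki-67 (0.54 ± 0.18, edgeR adjusted p = 0.0704). With 1 library left out in turn, Top2a passed in 4 of 12 fits (adjusted p up to 0.0853, without Pu.1-URE-/- 3) and Ncapd2 in 2 (up to 0.128, without Wild-type 3).

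On the Wild-type background alone, in Pu.1-URE-/- against Wild-type (3 libraries each), 5 members rose, where 3.84% of all genes did: Kif11 (2.58-fold higher, log2 change 1.36 ± 0.25, SE; edgeR adjusted p = 0.0113), Spc25 (2.40-fold higher, log2 change 1.26 ± 0.24, SE; edgeR adjusted p = 0.0135), Incenp (3.23-fold higher, log2 change 1.69 ± 0.40, SE; edgeR adjusted p = 0.0353), Nusap1 (2.14-fold higher, log2 change 1.10 ± 0.26, SE; edgeR adjusted p = 0.0371) and Cdk1 (2.02-fold higher, log2 change 1.01 ± 0.25, SE; edgeR adjusted p = 0.0462). No member fell. The median log2 change of the 54 was 0.79 against -0.03 over all genes, and 52 were above 0, as were 48.6% of all genes. For 25 members all Pu.1-URE-/- libraries were above all Wild-type libraries, which held for 15.9% of all genes. The count of 5 became 0 without Wild-type 2, Pu.1-URE-/- 1 or Pu.1-URE-/- 3, 1 without Wild-type 1, 2 without Wild-type 3 and 11 without Pu.1-URE-/- 2, the Pu.1-URE-/- library with the lowest mitosis sum and the lowest neutrophil and progenitor sums. It was 18 by DESeq2, 2 (Kif11 and Spc25) with Y-linked expression as a covariate, 1 (Kif11) with the number series of the labels as a block (libraries with close sample numbers, which the labels do not call a batch) and 0 with Wild-type 1, Mdmx-Tg 2 and double mutant 3 left out together. The share of all genes called in these repeats was not taken. Pu.1-URE-/- and Wild-type shared a number series only through library 1 of each. For their other libraries the number series cannot be told apart from genotype.

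On the Mdmx-Tg background, the double mutant against Mdmx-Tg, 1 member rose, Cdk1. That is 1.85% of the members, near the 1.67% of all genes that rose. Cdk1 was 2.20-fold higher (log2 change 1.14 ± 0.25, SE; edgeR adjusted p = 0.0438), and all 3 double mutants lay above all 3 Mdmx-Tg libraries. The median over the members was 0.58 against 0.03 over all genes, 53 of 54 were above 0 (51.6% of all genes), and the groups were apart, with the double mutant higher, for 21 (11.9%). Tacc3 (1.04 ± 0.29, edgeR adjusted p = 0.102), Spc25 (0.92 ± 0.24, edgeR adjusted p = 0.0787) and Kif11 (0.83 ± 0.25, edgeR adjusted p = 0.131) did not pass. The call on Cdk1 ended with any 1 of the 6 libraries left out (adjusted p up to 0.178, without Mdmx-Tg 1). No member passed in 5 of these fits, and without Mdmx-Tg 3 there were 2 calls on other members, Plk1 and Kif22. The median was 0.365 without double mutant 1. Whether the element acts differently with the transgene was tested by the interaction: 0 of 54 members passed by edgeR, DESeq2 or limma-voom, as did 0% of all genes in edgeR. At an unadjusted p below 0.05 there was 1, Incenp (log2 -1.21 ± 0.55) in edgeR, against 5.8% of all genes. The members' median interaction was -0.15, and its size and sign depended on single libraries. It was 0.011 without Pu.1-URE-/- 1, -0.046 without Mdmx-Tg 3, -0.059 without Wild-type 1, -0.069 without double mutant 2, -0.329 without Wild-type 3 and -0.352 without Pu.1-URE-/- 2. It was -0.056 by limma-voom, -0.065 with Wild-type 1, Mdmx-Tg 2 and double mutant 3 left out together, and -0.617 with the number series of the labels as a block, where 49 of 54 were below 0.

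No member rose or fell with the transgene itself. Over both backgrounds 0 of 54 passed in edgeR (0% of all genes) and in limma-voom, and DESeq2 called 8, all lower. The share of all genes that DESeq2 called was not taken, so its 8 calls have no background beside them. The members leaned down: the median log2 change was -0.33 against 0.00 over all genes, 5 of 54 were above 0 (50% of all genes), and 16 were lower at an unadjusted p below 0.05, where 8.08% of all genes were. Cks2, which links Cdk1 to its substrates, had the smallest p: it was at 202, 239.9 and 289 CPM in Wild-type 1, 2 and 3, 149.7, 169 and 217 in Mdmx-Tg, 379.8, 286 and 317 in Pu.1-URE-/- and 208, 247 and 181 in the double mutant. Its levels overlapped between genotypes with and without the transgene, and it was 1.45-fold lower (log2 change -0.54 ± 0.15, SE; edgeR adjusted p = 0.141). The mitotic kinase gene Plk1 was at 85.7, 127 and 131 CPM in Wild-type 1, 2 and 3, 29.0, 22.4 and 124 in Mdmx-Tg, 293, 154 and 269.6 in Pu.1-URE-/- and 146, 85.0 and 84.7 in the double mutant. Mdmx-Tg 1 and 2 were far below the other 10 libraries and Mdmx-Tg 3 lay among Wild-type, with Plk1 2.11-fold lower (log2 change -1.08 ± 0.40, SE; edgeR adjusted p = 0.219). Gtse1, whose product restrains p53 in G2, was at 15.6, 19.6 and 21.0 CPM in Wild-type 1, 2 and 3, 4.21, 18.7 and 7.05 in Mdmx-Tg, 54.4, 31.3 and 39.5 in Pu.1-URE-/- and 24.2, 9.93 and 14.2 in the double mutant. Mdmx-Tg 1 and 3 were the lowest and Mdmx-Tg 2 reached the Wild-type range, with Gtse1 2.20-fold lower (log2 change -1.14 ± 0.37, SE; edgeR adjusted p = 0.179). Without Mdmx-Tg 3 the count of calls in edgeR was 4 in place of 0, also with no share of all genes taken. Over the same contrast, 0 of 10 erythroid markers were above 0 (median -1.01) and 11 of 12 stem cell and gate markers were (median 0.51), none of either called, and their part in the members' shift was not tested.

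In Mdmx-Tg against Wild-type 0 members passed by edgeR, DESeq2 or limma-voom (0% of all genes in edgeR), 4 were lower at an unadjusted p below 0.05 (5.41% of all genes), and the median was -0.21 against 0.00. That median was -0.093 without Wild-type 3, -0.358 without Mdmx-Tg 3, -0.379 without Wild-type 1, -0.387 without Wild-type 1, Mdmx-Tg 2 and double mutant 3 together and -0.085 with the number series block. Only 3 of 54 members, Nek2, Aurkb and Kif2c, were lower in all 3 Mdmx-Tg libraries than in any Wild-type library. That share was no higher than the 7.05% of all genes. Nek2 was at 11.6, 8.73 and 16.3 CPM in Mdmx-Tg against 28.1, 19.7 and 35.9 in Wild-type (log2 -1.19 ± 0.43, edgeR adjusted p = 0.414). With Mdmx-Tg 3 left out 1 member, Plk1, passed in place of 0. In the double mutant against Pu.1-URE-/- 0 members passed by the same 3 tools (0% of all genes in edgeR), 5 were lower at an unadjusted p below 0.05 (5.27%), 4 of 54 were above 0 (50.4%), and the median was -0.43 against 0.01. That median was -0.24 without Pu.1-URE-/- 1, -0.652 without Pu.1-URE-/- 2 and -0.741 with the number series block. The double mutant and Pu.1-URE-/- shared a number series only through library 1 of each. Groups were apart for 7 members, all lower (8.95%). Incenp and Gtse1 were among them, with log2 changes of -1.20 and -1.37 and an edgeR adjusted p of 0.406 and 0.413.

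Compared with Wild-type, the double mutant had 1 member that rose, 1.85% of the members, where 2.47% of all genes rose. It was Spc25, 2.06-fold higher (log2 change 1.04 ± 0.24, SE; edgeR adjusted p = 0.0413). The median was 0.34 against 0.04 and 45 of 54 were above 0 (51.8%). The median was 0.112 without Wild-type 1, with 33 of 54 above 0, and 0.099 with Wild-type 1, Mdmx-Tg 2 and double mutant 3 left out together. All double mutants were above all Wild-type libraries for 15 of 54 members (15.2% of all genes). They were below them for only 1 of 54, Nek2, where 10.8% of all genes were. The call on Spc25 ended without any 1 of the 6 libraries (adjusted p up to 0.17, without Wild-type 1). These comparisons share their control libraries with those above.

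Of 164 other mitosis genes, outside the 54, 30 (18.3%) rose with loss of the element and 2 fell, where 8.08% of all genes tested rose and 3.81% fell, and their median log2 change was 0.42. By group, 6 of 31 other kinetochore genes rose, 6 of 18 of cytokinesis (1 fell), 4 of 15 DREAM and MMB genes (1 fell), 3 of 4 condensin genes, 3 of 14 cohesin genes, 3 of 38 spindle and centrosome genes, 3 of 23 entry and exit regulators and 2 of 21 of the anaphase-promoting complex pathway. The shares of spindle and centrosome genes (7.89%) and of the anaphase-promoting complex pathway (9.52%) were near that of all genes. Cdkn3, a phosphatase gene acting on cyclin-dependent kinases, was at 9.96, 21.3 and 24.8 CPM in Wild-type 1, 2 and 3, 18.1, 19.4 and 16.6 in Mdmx-Tg, 130.1, 48.3 and 104 in Pu.1-URE-/- and 85.1, 56.6 and 64.6 in the double mutant, and was 4.39-fold higher (log2 2.13 ± 0.28, edgeR adjusted p = 0.000892). Myh9, the non-muscle myosin heavy chain also used for cell migration, was 2.59-fold higher (adjusted p in edgeR 0.00131). Haus3 of the augmin complex (1.77-fold, edgeR adjusted p = 0.00386) and the Cenpa chaperone gene Hjurp (2.29-fold, edgeR adjusted p = 0.00469) followed.

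Genes of S phase, the DNA synthesis phase, were measured as a list of 42. With loss of the element 6 (14.3%) rose, where 8.08% of all genes did, 0 fell and the median was 0.18. Rrm2, the small subunit of ribonucleotide reductase, was at 184, 228 and 229 CPM in Wild-type 1, 2 and 3, 110.3, 126 and 214 in Mdmx-Tg, 772, 369 and 634 in Pu.1-URE-/- and 364, 263 and 321 in the double mutant, and was 2.42-fold higher (log2 1.27 ± 0.22, edgeR adjusted p = 0.00386). Uhrf1 (1.98-fold), the histone mRNA-binding gene Slbp (1.44-fold) and the thymidine kinase gene Tk1 (1.62-fold) rose with edgeR adjusted p of 0.0217, 0.0224 and 0.0312. The S phase sum was 5142, 7037 and 7728 CPM in Wild-type, 5275, 5107 and 6709 in Mdmx-Tg, 8564, 7112 and 8075 in Pu.1-URE-/- and 6425, 7868 and 7335 in the double mutant. It overlapped between libraries with and without the element. The ratio of the mitosis sum to the S phase sum was 0.951 to 1.1 in the 6 libraries with the element. It was 1.53, 1.11 and 1.41 in Pu.1-URE-/- and 1.31, 1.01 and 1.16 in the double mutant, where double mutant 2 lay within the range of the libraries with the element. The libraries with the highest ratios, Pu.1-URE-/- 1 and 3, also had the highest progenitor sums (54170 and 46330 CPM) and neutrophil sums (93520 and 63460 CPM).

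**Figure D4:**
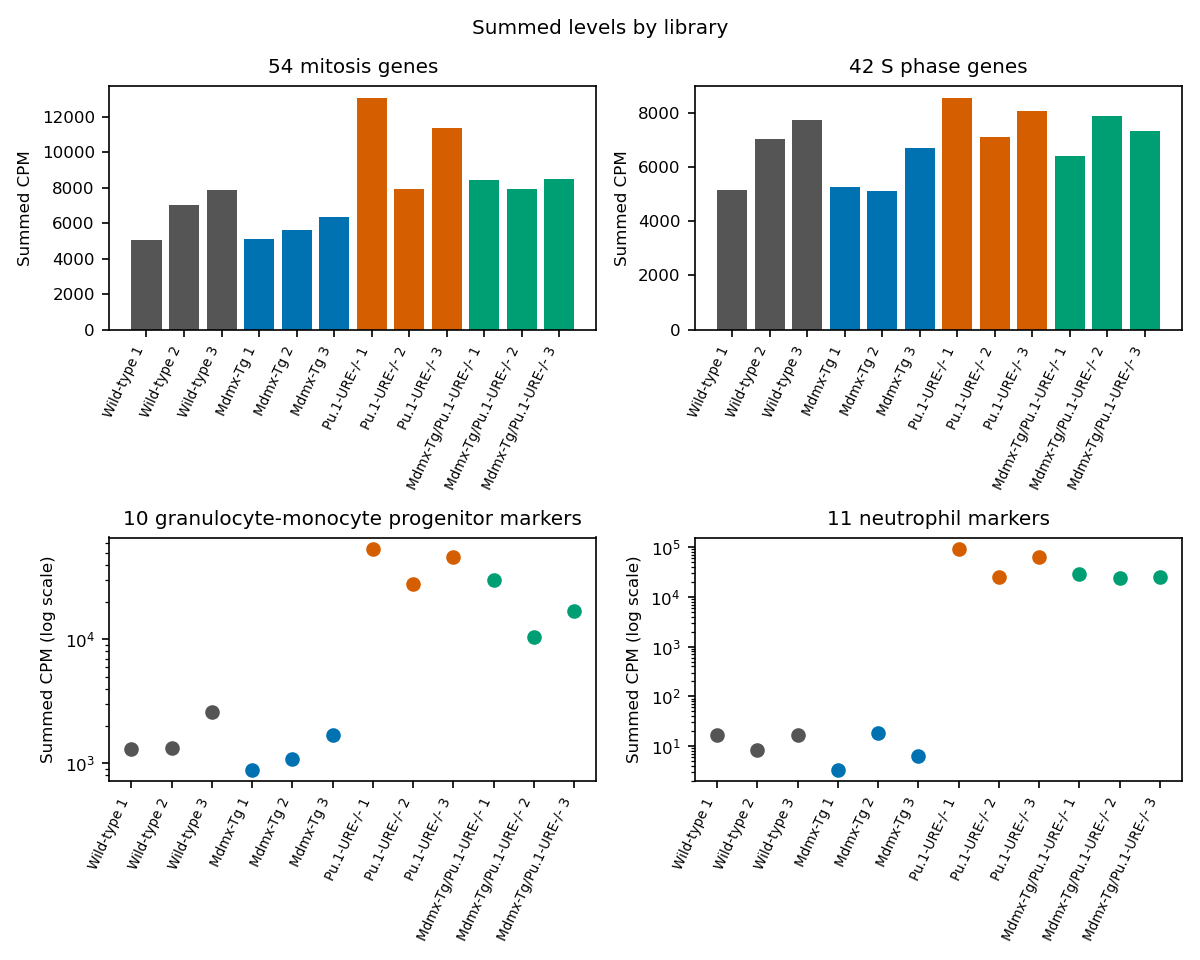
Summed CPM in each of the 12 libraries for the 54 mitosis genes and 42 S phase genes (bars from 0) and for 10 granulocyte-monocyte progenitor and 11 neutrophil markers (points, log scale). The mitosis sum is highest in Pu.1-URE-/- 1 (13100) and Pu.1-URE-/- 3 (11410), which also have the highest marker sums, and the S phase sums overlap between genotypes.

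The gene totals rest on 340 annotated transcripts. In 50 of the 54 members the transcript with the largest mean share of the gene's TPM was protein-coding, and the exceptions were Cenpa, Top2a, Ncapd2 and Kif23. For Top2a a 3-exon non-coding transcript held 48.0% of TPM on average but fewer reads than the 36-exon coding transcript in every library, 1040 to 4490 against 8780 to 26900. In Incenp a 2-exon transcript held 65.4% of TPM with 424 to 992 reads, while the 18-exon coding transcript Incenp-201 had 4440, 2440 and 4500 reads in Pu.1-URE-/- and 752 to 1990 in the other 9 libraries. The 8-exon transcript Smc4-206 had 28.1 reads in double mutant 3 and 3610 in Pu.1-URE-/- 3. Exons of several members overlap another gene, for example Tacc3 with Tmem129, Prc1 with Rccd1, Nusap1 with Oip5 and Cdc20 with Elovl1 on the opposite strand, and whether the counting used strand is not given in the sources used here, so reads in the shared part are uncertain.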

How the data were processed

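Polyadenylated RNA of sorted cells was sequenced in pairs of 100-base reads on a BGISEQ-500, per the labels. The submitters' processing notes name Salmon, FastQC and DESeq2 and the builds GRCm38 and mm10, with no role or version. Per the file headers, the deposited files hold estimated counts per transcript, TPM computed by the authors, and transcript lengths. Estimated counts (35.3% of the values not whole) were summed per gene through the GENCODE M21 annotation of GRCm38 and rounded. Of 116248 transcripts 253 were unmatched, with at most 0.0841% of a library's reads.

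Tests used edgeR 4.0.16 in R 4.3.3: filterByExpr (minimum count 10, total 15), TMM factors, quasi-likelihood fits with 1 mean per genotype over 12 libraries, and Benjamini-Hochberg adjustment over 15012 genes at a threshold of 0.05. The 8 contrasts were 5 pairs of genotypes, the mean effects of element and transgene, and their interaction. The biological coefficient of variation was 0.796. Alternatives included DESeq2 1.42.0, limma-voom (limma 3.58.1), other filters and scalings, robust estimation, blocks and libraries left out. The fit was also run on simulated data, as a check of the code only. There genes varied independently with no shift in cell types, so it does not bear on the results above. Tables and figures used Python 3.11.

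The 54 members and all gene lists were chosen with earlier results of these data known. All members may be named. Full values were given for members called in any contrast, and up to 4 genes per contrast were named from the other mitosis and S phase lists. Marker lists for B and plasma cells and for T and NK cells were also measured: with loss of the element 0 of 8 and 1 of 4 genes tested rose, and 1 and 0 fell.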

Additional observations from a re-analysis of the deposited data

How the results depend on the processing

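The 26 calls of a member in a contrast were followed through 615 repeated fits. Under other settings the call held in 267 of 345 fits and with 1 library left out in 119 of 270. None reversed direction, but a reversal was unlikely from the start. The repeats reuse the same libraries, and the changes were already large for their error. Shares over all genes were taken from the main edgeR fit only. Counts below, under other settings or with libraries left out, have none beside them. Counts of members called under other settings were as follows. Pu.1-URE-/- against Wild-type (main count 5) gave 18 by DESeq2, 1 with the number series of the labels as a block, 2 with a Y-linked covariate and 0 with Wild-type 1, Mdmx-Tg 2 and double mutant 3 left out together. The double mutant against Mdmx-Tg (main count 1) gave 5 by DESeq2 and 0 with relative log expression factors, an offset for transcript length, a fit on the 2 groups alone, the number series block, the Y-linked covariate or the 3 libraries left out. The double mutant against Wild-type (main count 1) gave 2 by DESeq2 and 0 with relative log expression factors, no low-count filter, the length offset, the number series block, the Y-linked covariate or the 3 libraries left out. Loss of the element (main count 19) gave 9 with the Y-linked covariate and 5 without the 3 libraries, and the transgene (main count 0) gave 8 by DESeq2. The cause was not tested.

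With 1 library left out, counts ran from 0 to 1 for Mdmx-Tg against Wild-type, 0 to 11 for Pu.1-URE-/- against Wild-type, 0 to 2 for the double mutant against Mdmx-Tg, 4 to 22 for loss of the element and 0 to 4 for the transgene. They were 0 for the double mutant against Wild-type and against Pu.1-URE-/- and for the interaction. Median log2 changes moved by less than 0.293 in 173 of 175 repeats. That is the pooled SD, within genotypes, of each library's median deviation over the members. The yardstick is coarse, since the main medians for Mdmx-Tg against Wild-type (-0.205) and the interaction (-0.151) are smaller in size. Within it, the interaction went to 0.011 without Pu.1-URE-/- 1. The double mutant against Wild-type went from 0.336 to 0.112 without Wild-type 1. The 2 exceptions came with the number series block, at -0.741 for the double mutant against Pu.1-URE-/- and -0.617 for the interaction. Pu.1-URE-/- shared a number series with Wild-type, and with the double mutant, only through library 1 of each. Number series and genotype therefore cannot be fully told apart in that setting. The median for loss of the element ran from 0.594 to 0.745 with 1 library left out.

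The replicate numbers of the labels did not pair the samples (correlations of same-numbered libraries from -0.153 to 0.086). With the replicate block the double mutant gave 0 calls against Mdmx-Tg and 0 against Wild-type, and no other count moved by more than 1.5 times. Depth was similar in all libraries, and the few libraries per genotype limit the precision.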
